A study of Arabidopsis thaliana with 24 samples.

Results

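The genes described here belong to the CC-type glutaredoxins, a family found only in land plants, and 8 of them were followed across roots and rosette leaves of Arabidopsis thaliana: ROXY2 (AT5G14070), AT5G11930, AT1G06830, AT3G62950, AT2G47880, AT4G33040, AT5G18600 and AT2G30540. A probe set was taken when the annotation pointed to exactly 1 of these genes, which gave 8 probe sets, 1 per gene, of the 22746 on the array and 8 of the 13355 genes with a probe set of their own. The family as counted here has 21 genes, and 17 of them had a probe set of their own, so 9 other CC-type genes were measured and are described after the 8. The members were chosen by the log2 signals of TiO2 and KCl leaf arrays, where AT5G11930 and ROXY2 had already been seen to differ; which values led to the other 6 is not known. Every difference computed from TiO2 or KCl leaf arrays is therefore given as values, with no test.

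RNA was hybridised to 24 Affymetrix ATH1 arrays, 3 in each of 8 groups, from wild-type Col-0 plants aged 29 days. The groups were roots and rosette leaves of plants watered with nano-titania (TiO2) at 500 mg/L, with the KCl solution in which the titania was suspended, with nano-ceria (CeO2) at 500 mg/L, or with the millipore water in which the ceria was suspended. All plants grew in potting medium and were watered with their agent on 2 occasions between days 0 and 4 and again on day 17. TiO2 plants thus received KCl too, and the KCl strength differs within the labels, 0.1 mM for the samples but 0.1 M where the treatment is described. The replicates are called biological, but nothing says how many plants gave an array, nor whether a root and a leaf array of the same number share plants.

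Glutaredoxins are small proteins that use glutathione to reduce or bind other proteins. The CC-type class, named after its pair of active-site cysteines and also called ROXY, occurs only in land plants. Its members bind TGA transcription factors in the nucleus, and many can recruit the TOPLESS corepressor. Members of the family are known for roles in flower and anther development, in defence signalling and in signalling of nitrogen status between shoot and root. ROXY2 is known for its role, shared with ROXY1, in anther development. The other 7 carry only locus codes in the annotation used here and are given no role of their own.

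The 8 genes lie on all 5 chromosomes (TAIR10.1 assembly, positions from RefSeq). On chromosome 5 are AT5G11930 at chr5:3844940-3845711, ROXY2 at chr5:4541780-4542585 and AT5G18600 at chr5:6183166-6184038. AT1G06830 lies at chr1:2097106-2097655, AT2G30540 at chr2:13011105-13012043, AT2G47880 at chr2:19605030-19605704 and AT4G33040 at chr4:15940228-15941493. AT3G62950, at chr3:23266227-23267090, stands between 2 other CC-type genes, with 4299 bases to AT3G62930 and 1550 bases to AT3G62960.

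Values are log2 RMA signals, so a difference of 1 is a factor of 2. Array medians lay between 4.96 and 5.15, and replicate arrays of a group correlated at 0.873 to 0.990 over all probe sets. On 6 arrays the lower quartile was above 3.7, a narrower spread than on the others; these narrow arrays were KCl roots 1 and 3, TiO2 roots 2, water roots 1, KCl leaves 2 and CeO2 leaves 2. The tissue labels matched the markers: over CeO2 and water plants, all 3 leaf markers measured were lower in roots and all 3 root markers were higher in roots. The 3 leaf markers averaged 4.63 to 7.50 on root arrays and 11.03 to 12.96 on leaf arrays. A group mean does not tell fewer cells of a type from less RNA per cell.

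**Figure D1:**
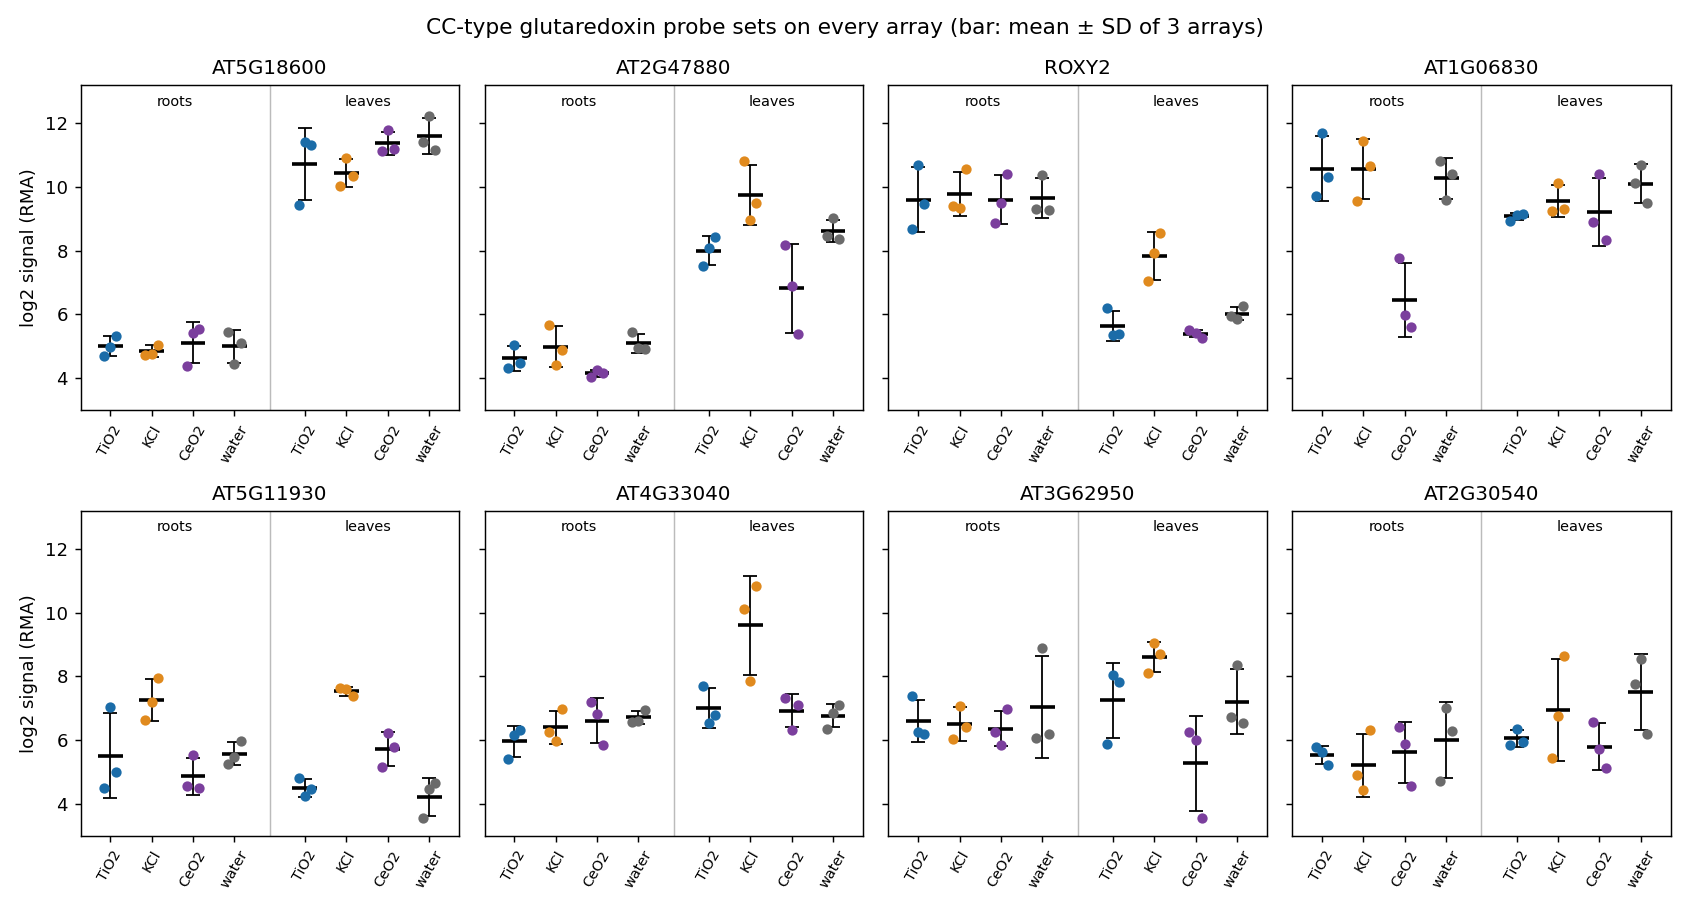
Each point is the log2 RMA signal of 1 array, for the 8 genes in the 8 groups, with roots left of leaves in each panel; the horizontal bar is the mean and the whisker the SD of 3 arrays. AT5G18600 lies between 4.39 and 5.54 in all 12 root arrays and between 9.42 and 12.22 in all 12 leaf arrays, and AT1G06830 lies between 5.60 and 7.78 in CeO2 roots.

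Between tissues, ROXY2 was higher in roots, and AT5G18600 and AT2G47880 were lower in roots than in leaves. Over the CeO2 and water plants, 4 of the 8 genes passed the limma test with Benjamini-Hochberg adjustment over all probe sets, 1 higher and 3 lower in roots. In the same test 30.9% of all probe sets passed, 17.0% higher and 13.9% lower. The groups did not overlap on any array for 1 gene that was higher and 1 that was lower in roots, against 7.61% and 8.01% of all probe sets.

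AT5G18600 had the widest gap of the 8. In CeO2 roots it had 4.39, 5.41 and 5.54, against 11.13, 11.78 and 11.19 in CeO2 leaves. In water roots it had 5.44, 4.43 and 5.10, against 11.42, 12.22 and 11.15 in water leaves. Every root array lay below every leaf array. The mean was 5.05 in roots and 11.48 in leaves, a difference of -6.43 ± 0.32 (SE, 6 arrays each, 86.2-fold, limma adjusted p = 4.34e-11). As a description, in plants given TiO2 or KCl the root arrays lay between 4.70 and 5.32 and the leaf arrays between 9.42 and 11.42.

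ROXY2 ran the other way. Its values were 8.88, 9.50 and 10.40 in CeO2 roots, against 5.50, 5.42 and 5.27 in CeO2 leaves. They were 9.31, 10.37 and 9.28 in water roots, against 5.95, 5.86 and 6.26 in water leaves. Every root array was above every leaf array. The difference was 3.91 ± 0.35 (9.62 in roots, 5.71 in leaves, SE, 6 arrays each, 15-fold, limma adjusted p = 9.49e-08). ROXY2 hardly varied among the 4 root groups, whose means spanned 0.18, from 9.59 ± 0.76 in CeO2 roots to 9.77 ± 0.70 in KCl roots (SD, n = 3 each).

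AT2G47880 was lower in roots by 3.09 on average. Its values were 4.04, 4.26 and 4.16 in CeO2 roots, against 8.18, 6.89 and 5.38 in CeO2 leaves. They were 5.44, 4.93 and 4.91 in water roots, against 8.45, 9.01 and 8.36 in water leaves. The groups overlapped through 1 CeO2 leaf array at 5.38. The difference was -3.09 ± 0.38 (4.62 in roots, 7.71 in leaves, SE, 6 arrays each, limma adjusted p = 4.27e-06).

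AT1G06830 passed as lower in roots over the CeO2 and water plants together, but not in water plants alone. The difference was -1.30 ± 0.45 (8.36 in roots, 9.66 in leaves, SE, 6 arrays each, limma adjusted p = 0.0337). In water plants alone it was 0.16 (limma adjusted p = 0.9) and in CeO2 plants alone -2.76 (limma adjusted p = 0.00471). Over plants of all 4 agents it was -0.02, given without a test. These 3 splits were added after the values were seen. A fit to only the groups compared left the difference at -1.30 and ended the call (limma adjusted p = 0.066). Leaving out any 1 of 6 of the 12 arrays (CeO2 roots 2 or 3, water roots 2, CeO2 leaves 2, water leaves 1 or 2) took the adjusted p above 0.05, to between 0.0565 and 0.099.

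The remaining 4 genes did not pass between tissues in CeO2 and water plants. AT5G11930 differed by 0.24 ± 0.36, AT3G62950 by 0.46 ± 0.56, AT4G33040 by -0.18 ± 0.40 and AT2G30540 by -0.83 ± 0.54 (SE, roots minus leaves). The averages of AT5G11930 and AT3G62950 join opposite directions. AT5G11930 had means of 5.56 in water roots and 4.22 in water leaves, but 4.86 in CeO2 roots and 5.71 in CeO2 leaves. For AT3G62950 they were 7.04 and 7.21 with water, and 6.36 and 5.28 with CeO2. AT4G33040 and AT2G30540 had lower means in roots with both agents. Over all 4 agents, which brings in the KCl leaf arrays that helped choose the family, AT4G33040 was lower in roots by 1.15 and AT2G30540 by 0.98.

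CeO2 roots had the lowest mean of the 4 root groups for 5 of the 8 genes, a share not counted over all probe sets. For ROXY2 the means were 9.59 in CeO2 and 9.60 in TiO2 roots. AT1G06830 stood apart from all others in size. It had 7.78, 5.99 and 5.60 in CeO2 roots, against 10.82, 9.58 and 10.39 in water roots. In TiO2 roots it had 9.72, 11.69 and 10.32, and in KCl roots 9.57, 11.44 and 10.64. All 3 CeO2 root arrays lay below the other 9 root arrays and below all 12 leaf arrays, whose lowest value was 8.34.

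The CeO2 difference of AT1G06830 in roots was -3.80 ± 0.70 (6.46 ± 1.16 in CeO2 roots, 10.26 ± 0.63 in water roots, SD, n = 3 each, 95% interval -5.36 to -2.24, 14-fold). It did not pass (limma adjusted p = 0.201). Of all probe sets 0.0176% passed this comparison, 4 in number, and 0 of the 8 genes were among them. With arrays weighted by their quality the difference was -4.22 with an adjusted p of 0.00664, and 307 of 22746 probe sets passed. Leaving out any 1 array kept it between -4.47 and -3.38, with adjusted p from 0.167 to 0.579.

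AT2G47880 was the second gene whose CeO2 and water root arrays did not overlap. Its CeO2 roots, at 4.04 to 4.26, lay below its water roots, at 4.91 to 5.44, by 0.94 ± 0.32 on average (limma adjusted p = 0.545). So 2 of the 8 genes were lower on every CeO2 root array, against 7.29% of all probe sets. In all 7 of 8 genes had a lower mean in CeO2 roots, as did 12644 of 22746 probe sets. The median difference of the 8 was -0.53, against -0.04 over all probe sets. The other 6 differed by -0.71 to 0.12, each with overlapping arrays.

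Leaf markers moved in the same comparison. Their mean over the 3 markers was 6.26 to 7.50 in CeO2 roots and 4.97 to 6.07 in water roots, and all 3 were higher in CeO2 roots, by 1.80 for RCA (rubisco activase), 1.59 for PSAN (a photosystem I subunit) and 0.06 for SBPASE (a Calvin cycle enzyme). None of the 3 passed the limma test, though RCA did not overlap, at 8.00 to 9.83 in CeO2 and 6.42 to 7.64 in water roots. In this direction 1297 of 22746 probe sets did not overlap. Of the 3 root markers, 2 had a higher mean in CeO2 than in water roots and 1 a lower one, with differences of -0.22 to 0.78. None of these passed either, though the root marker JAL33 was higher on every CeO2 than on any water root array. All 3 leaf markers also had a higher mean in TiO2 than in KCl roots, by 0.21 to 1.96, where AT1G06830 differed by 0.02. AT5G18600, which had the largest excess in leaves, had 5.11 ± 0.63 in CeO2 roots and 4.99 ± 0.51 in water roots (SD, n = 3 each). Whether the makeup of the root samples had a part in the values of AT1G06830 was not tested.

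In leaves the CeO2 values of AT1G06830 overlapped those of water plants, with 8.91, 10.41 and 8.34 in CeO2 leaves and 10.13, 10.69 and 9.49 in water leaves. The CeO2 difference in roots minus that in leaves was -2.92 ± 0.90 (limma adjusted p = 0.589). The TiO2 difference minus the CeO2 difference within roots was 3.83 ± 0.99 (limma adjusted p = 0.136). Neither passed; 0.00440% and 0.572% of all probe sets did, and 0 of the 8 genes in each. Both passed with array weights, with adjusted p of 0.0489 for the tissues and 0.00685 for the particles. With these weights 33 of 22746 probe sets passed for the tissues and 2637 for the particles.

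**Figure D2:**
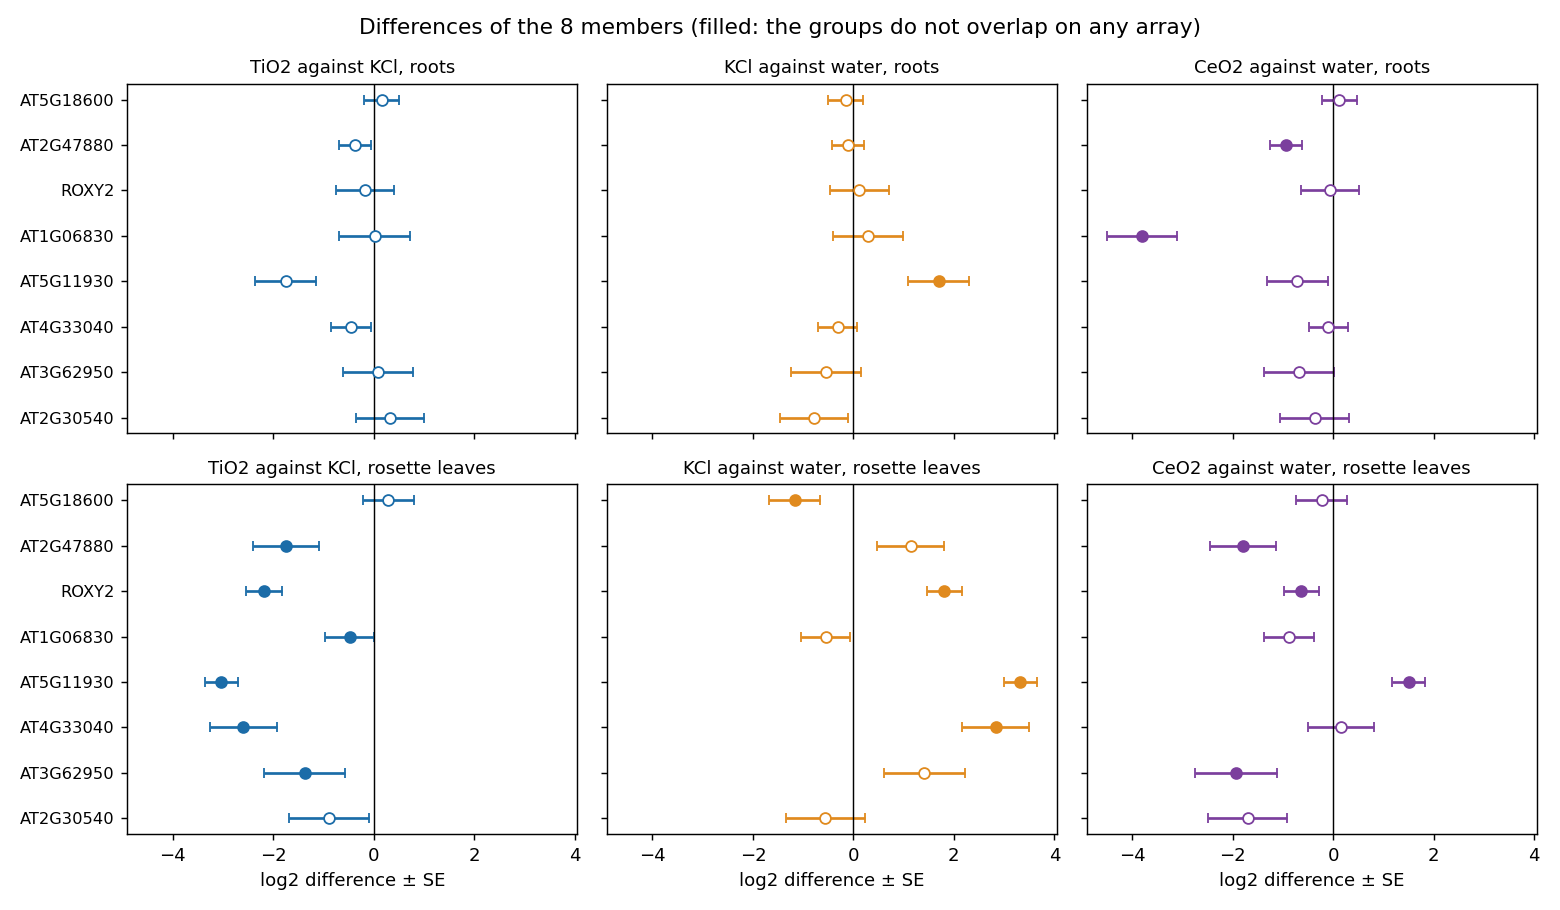
Log2 differences of the 8 genes with their SE from limma, for each agent against its control in roots (top) and rosette leaves (bottom); filled points mark genes whose 2 groups do not overlap on any array. AT1G06830 is at -3.80 for CeO2 in roots, AT5G11930 is at -3.03 for TiO2 and 3.32 for KCl in leaves, and 6 points are filled for TiO2 in leaves.

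AT5G11930 and ROXY2 had their highest mean of the 4 agents with KCl in roots as in leaves. The KCl and water root arrays of ROXY2 overlapped, at 9.34 to 10.57 and 9.28 to 10.37. AT5G11930 had in roots 6.62, 7.21 and 7.95 with KCl, against 5.25, 5.48 and 5.96 with water. The arrays did not overlap, which held for 8.21% of all probe sets in this direction. The difference was 1.70 ± 0.61 (7.26 in KCl roots, 5.56 in water roots, SE, n = 3 each, limma adjusted p = 0.292). Of all probe sets 0.119% passed KCl against water in roots, 27 in number, and 0 of the 8 genes did. With the replicate number as a block, since KCl and water roots of the same number deviated together, 0 probe sets passed and AT5G11930 had an adjusted p of 0.242. With array weights its difference was 1.82 with an adjusted p of 0.0447, and 1551 of 22746 probe sets passed.

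Against KCl roots, AT5G11930 had 4.50, 7.03 and 5.0 in TiO2 roots, next to the 6.62 to 7.95 of KCl roots. The second TiO2 array, a narrow one, lay within the KCl range and the other 2 lay below it. The difference was -1.75 ± 0.61 (5.51 in TiO2 roots, 7.26 in KCl roots, SE, n = 3 each, limma adjusted p = 0.252). Without TiO2 roots 2 it was -2.51 (limma adjusted p = 0.0323), where 456 of 22746 probe sets passed. With array weights it was -2.54 (adjusted p = 0.00988), where 3305 of 22746 probe sets passed. With all arrays and no weights 79 passed. No other gene of the 8 differed by more than 0.45 between TiO2 and KCl roots, 4 were higher and 4 lower, and 0 of 8 passed, as did 0.347% of all probe sets.

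In leaves AT5G11930 also differed between CeO2 and water plants. It had 5.15, 6.21 and 5.77 in CeO2 leaves, against 3.54, 4.47 and 4.64 in water leaves. Every CeO2 array was higher, though all stayed below the KCl leaves at 7.37 to 7.62. The difference was 1.50 ± 0.33 (5.71 in CeO2 leaves, 4.22 in water leaves, SE, n = 3 each, 95% interval 0.76 to 2.23, limma adjusted p = 0.9995). This SE, interval and p came from the fit to all leaf arrays, as did those of the other genes. The spread they rest on thus includes the TiO2 and KCl leaf arrays that helped choose the genes. For AT5G11930 the SD was 0.53 in CeO2 and 0.59 in water leaves, but 0.29 in TiO2 and 0.14 in KCl leaves. In roots its CeO2 difference was -0.71 ± 0.61, and the root difference minus the leaf difference was -2.20 ± 0.72 (limma adjusted p = 0.691).

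Most of the other members had lower means in CeO2 leaves. Of the 8 genes 6 had a lower mean than in water leaves, as did 10538 of 22746 probe sets. The median difference over the 8 was -0.75, against 0.02 over all probe sets. Arrays did not overlap for 3 genes that were lower (2.33% of all probe sets) and 1 that was higher (2.89%). With limma 0 of 8 passed, and so did 0.00% of all probe sets. At an unadjusted p under 0.05 there were 3 of the 8 genes and 503 probe sets, or 2.21%.

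Of these, 2 genes were lower in CeO2 leaves. AT3G62950 had 6.26, 6.01 and 3.56 in CeO2 leaves, against 6.72, 8.37 and 6.53 in water leaves, a difference of -1.93 ± 0.81 (SE, n = 3 each, limma adjusted p = 0.9995). AT2G47880 had 8.18, 6.89 and 5.38 in CeO2 leaves, against 8.45, 9.01 and 8.36 in water leaves, a difference of -1.79 ± 0.66 (SE, n = 3 each, limma adjusted p = 0.9995). Both were lowest on the same array, CeO2 leaves 3, and without it each difference was -1.07. ROXY2 was lower on every CeO2 leaf array by 0.63 ± 0.35, and AT2G30540 was lower by 1.70 ± 0.79 with overlapping arrays.

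KCl leaves carried the highest mean of the 4 leaf groups for 5 of the 8 genes, and water leaves for the other 3. These shares were not counted over all probe sets. Values of the TiO2 and KCl leaf arrays helped choose the family, so they are given as a description. AT5G11930 had 4.81, 4.23 and 4.46 in TiO2 leaves, 7.62, 7.60 and 7.37 in KCl leaves and 3.54, 4.47 and 4.64 in water leaves. KCl leaves stood above both other groups by a wide margin and with little spread. The TiO2 minus KCl difference was -3.03 ± 0.33 and the KCl minus water difference 3.32 ± 0.33 (SE).

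ROXY2 and AT4G33040 also had their highest values in KCl leaves, with more spread. ROXY2 had 6.19, 5.36 and 5.39 in TiO2 leaves, 7.04, 7.92 and 8.54 in KCl leaves and 5.95, 5.86 and 6.26 in water leaves. AT4G33040 had 7.71, 6.54 and 6.78 in TiO2 leaves, 10.11, 7.84 and 10.84 in KCl leaves and 6.36, 6.86 and 7.09 in water leaves. In both genes the KCl arrays lay above all TiO2 and all water leaf arrays. TiO2 minus KCl was -2.18 ± 0.35 for ROXY2 and -2.59 ± 0.66 for AT4G33040, and KCl minus water was 1.81 ± 0.35 and 2.83 ± 0.66 (SE). The lowest KCl value of AT4G33040 came from the narrow KCl array, and without that array its TiO2 minus KCl difference was -3.47.

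AT2G47880 and AT3G62950 were also highest in KCl leaves. AT2G47880 had 7.51, 8.07 and 8.42 in TiO2 leaves and 10.80, 8.96 and 9.48 in KCl leaves. AT3G62950 had 5.89, 8.03 and 7.82 in TiO2 leaves and 8.12, 9.05 and 8.69 in KCl leaves. Both were lower on every TiO2 array than on any KCl array, by 1.75 ± 0.66 and 1.37 ± 0.81 on average (SE). Against water leaves the KCl values of both overlapped, with differences of 1.14 ± 0.66 for AT2G47880 and 1.41 ± 0.81 for AT3G62950.

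The last 3 genes did not share the KCl peak. AT5G18600 had 9.42, 11.42 and 11.31 in TiO2 leaves, 10.03, 10.90 and 10.34 in KCl leaves and 11.42, 12.22 and 11.15 in water leaves. KCl leaves were its lowest leaf group and lay below every water array, by 1.17 ± 0.51 (SE). AT1G06830 differed by -0.48 ± 0.49 between TiO2 and KCl leaves and by -0.55 ± 0.49 between KCl and water leaves. AT2G30540 differed by -0.89 ± 0.79 and -0.56 ± 0.79 in these comparisons, and its KCl leaves ranged from 5.43 to 8.63.

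In all, 7 of 8 genes had a lower mean in TiO2 than in KCl leaves, as did 13122 of 22746 probe sets. Of the 8 genes 6 were lower on every array, against 14.0% of all probe sets. The median difference was -1.56, against -0.07 over all probe sets. KCl minus water had a median of 1.28 over the 8 genes and 0.04 over all probe sets, with 3 genes higher and 1 lower on every KCl array, where 8.86% and 8.25% of all probe sets were. The TiO2 and KCl comparisons share the KCl arrays, so their opposite signs are not separate observations. Leaf markers moved beside them: all 3 had a higher mean in TiO2 than in KCl leaves, by 0.15 to 2.11, and SBPASE did so on every array. All 3 had a lower mean in KCl than in water leaves, by 0.37 to 0.67. Over the 3 leaf markers, array means were 12.21 to 12.96 in TiO2, 11.03 to 12.16 in KCl and 11.88 to 12.45 in water leaves. The 3 root markers had higher means in TiO2 than in KCl leaves, by 0.07 to 0.57, with overlapping arrays. They were also higher in KCl than in water leaves, by 0.01 to 0.89, again with overlap. The part of either marker list in the values of the 8 genes was not tested.

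The order of the 8 groups differed from gene to gene. In AT5G11930 KCl leaves and KCl roots came first, overlapped each other, and stood clear of the next group, CeO2 leaves. Further down its order, TiO2 roots reached 7.03, above the lowest KCl root array at 6.62. In ROXY2 the 4 root groups came first, then KCl leaves, then the other 3 leaf groups, with gaps only around KCl leaves. In AT5G18600 the only gap between neighbours lay between KCl leaves, the lowest leaf group, and CeO2 roots, the highest root group. In AT1G06830 the only gap lay between TiO2 leaves and CeO2 roots, the lowest group. In AT4G33040 and AT3G62950 the only gap set KCl leaves above TiO2 leaves. In AT3G62950, however, water leaves reached 8.37 and water roots 8.89, above the lowest KCl leaf array at 8.12. In AT2G47880 only CeO2 roots were set off, at the low end, and in AT2G30540 every group overlapped the next in order.

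AT3G62950 and AT2G30540 were spread widely among the water roots. AT3G62950 had 6.05, 8.89 and 6.18 in water roots, and AT2G30540 had 4.70, 7.01 and 6.29 there. In both genes the second water root array was the highest of the 12 root arrays, and the root group means spanned 0.68 and 0.79, less than the SD of the water roots, 1.61 and 1.18. In the other root groups the SD was 0.54 to 0.67 for AT3G62950 and 0.28 to 0.99 for AT2G30540.

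Across the 12 leaf arrays, the 28 pairs among the 8 genes correlated at -0.66 to 0.84, with a median of 0.36. Across the 12 root arrays the range was -0.48 to 0.57 and the median 0.04. These points share 4 agents and, in part, narrow arrays, and the values are descriptions. Ranked by likeness to AT5G11930 over the leaf arrays among 13512 other probe sets of 1 gene, AT4G33040 came 302nd (r = 0.744) and ROXY2 422nd (r = 0.716). The other 5 genes came between 4752nd and 11845th, the last being AT5G18600 (r = -0.413).

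The 5 probe sets most like AT5G11930 over the 12 leaf arrays belonged to AT2G23270 (Pearson r = 0.927, Spearman rho = 0.902), ATG8G (r = 0.925, rho = 0.881), AT1G62422, AT3G15740 and AT1G61700 (r = 0.910, 0.909 and 0.904). ATG8G encodes a ubiquitin-like protein of autophagosome membranes. Its means were 6.78 in TiO2, 8.82 in KCl, 7.44 in CeO2 and 7.04 in water leaves, an order that follows from the ranking.

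Over the 12 root arrays, the 5 most like AT1G06830 were AT3G02640 (r = 0.922, rho = 0.846), RALFL34 (r = 0.917, rho = 0.916), AT2G27775 (r = 0.900), AT5G54970 (r = 0.892) and GLDH (r = 0.878). RALFL34 encodes a small secreted peptide of the rapid alkalinization factor type, and GLDH the enzyme of the last step of ascorbate synthesis. RALFL34 had means of 9.76 in TiO2, 9.91 in KCl, 7.14 in CeO2 and 10.59 in water roots. In all 5 the CeO2 roots had the lowest mean, which is the pattern they were ranked by. Among the 8 genes the nearest to AT1G06830 in roots were AT5G11930, 443rd (r = 0.575), and AT2G47880, 558th (r = 0.550).

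The 9 other CC-type genes with a probe set were compared in the same way. In roots against leaves of CeO2 and water plants, 1 was higher and 3 were lower in roots past the limma threshold, where 17.0% and 13.9% of all probe sets were. AT3G62960 was higher in roots by 2.47 (adjusted p = 0.00915), while AT4G15660 was lower by 2.60 (adjusted p = 0.00727), AT4G15700 by 2.07 (adjusted p = 0.00364) and AT4G15690, named after its value was seen, by 1.76 (adjusted p = 0.0124). ROXY1 had group means of 4.33 to 4.95 everywhere, and GRX480, a salicylate-induced member known to bind TGA factors, had 10.34 to 12.25. None of the 9 passed in any of the other 6 tests.

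Of the 9, AT4G15660, AT4G15680, AT4G15690 and AT4G15700 lie close together on chromosome 4 and were singled out here after their values were seen. From each to the next measured family member there are 1978 to 5106 bases. AT4G15670, a family gene without a probe set of its own, falls between AT4G15660 and AT4G15680 by locus number. All 4 measured genes had their highest root mean with TiO2. AT4G15690 had 9.60, 8.19 and 9.31 in TiO2 roots, against 4.82, 7.52 and 7.17 in KCl roots, a difference of 2.53 ± 0.77 (SE, n = 3 each, limma adjusted p = 0.187). Against water, CeO2 roots were lower by 1.27 to 2.30 in the 4 genes, none past the threshold. The KCl root array 1, a narrow one, was the lowest of the 3 KCl root arrays in all 4. Tandem copies can share sequence, and how far each probe set reads its neighbours was not tested.

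**Figure D3:**
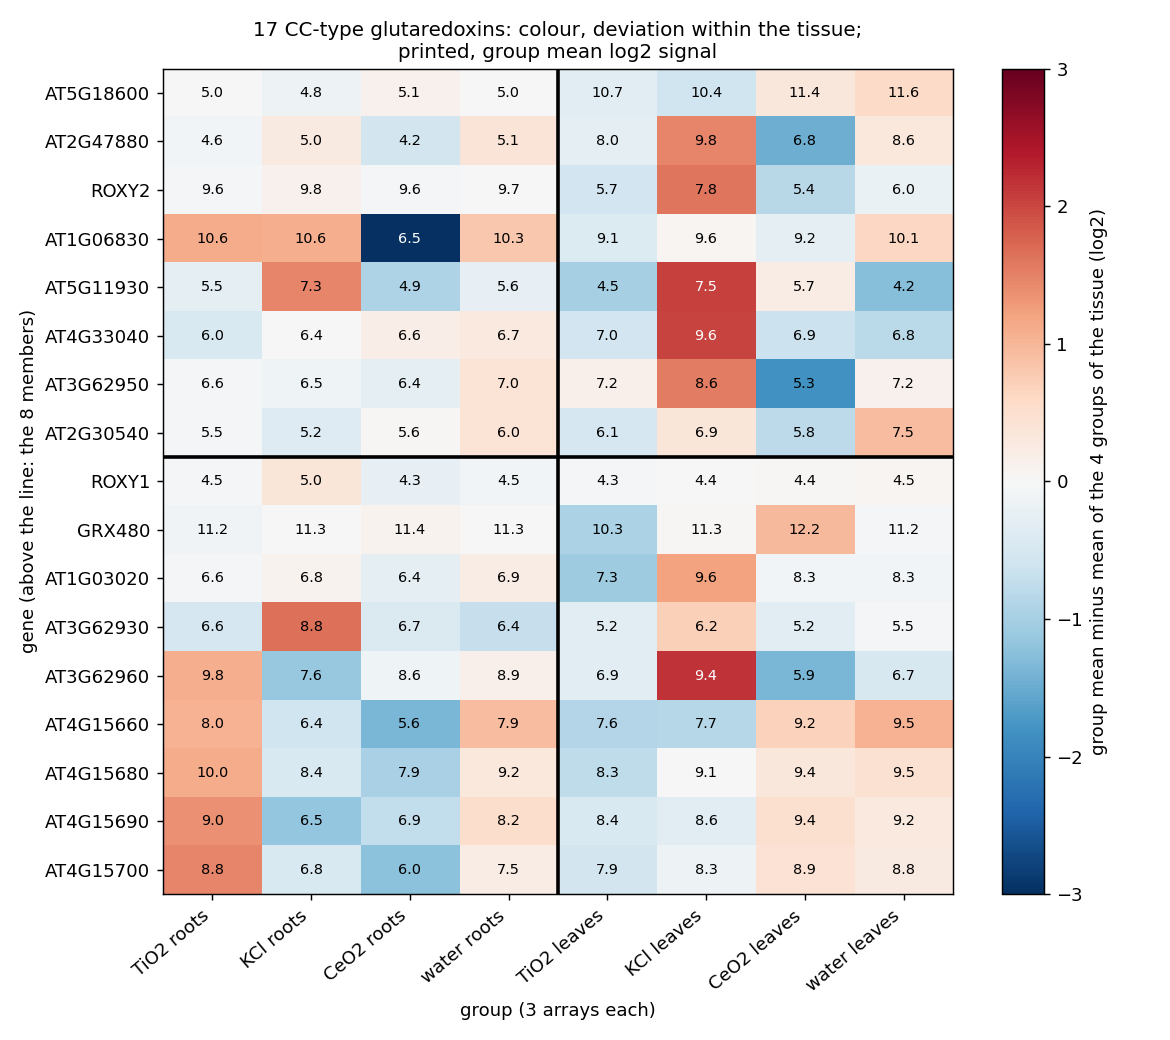
Group means of the 17 CC-type genes with a probe set of their own, the 8 genes above the line and the 9 others below it, in roots (left) and leaves (right). The printed number is the mean log2 signal of 3 arrays and the colour its distance from the mean of the 4 groups of that tissue; AT1G06830 in CeO2 roots, at 6.46, and KCl leaves of AT5G11930, at 7.53, lie far from their tissue means.

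Between TiO2 and KCl leaves, again given as a description, all 9 other genes had a lower mean in TiO2 leaves (median -0.74). A lower mean was found for 13122 of 22746 probe sets. Of the 9, 1 was lower on every array, against 14.0% of all probe sets. That gene, AT3G62960, the neighbour of AT3G62950, had 7.84, 6.03 and 6.79 in TiO2 leaves, 10.45, 8.29 and 9.42 in KCl leaves and 6.43, 6.27 and 7.51 in water leaves. Between KCl and water leaves the 9 had no common direction. With KCl 4 had a higher mean and 5 a lower one (median -0.07, range -1.89 to 2.65), against a median of 1.28 over the 8 genes.

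Among other glutaredoxins, 5 of 6 CPYC-type genes, the class known for reducing thiols with glutathione, had a probe set. Of these, 4 were lower in roots than in leaves and passed, against 13.9% of all probe sets, among them GRXC2 at -1.74 (limma adjusted p = 1.95e-05) and AT2G20270 at -2.18 (adjusted p = 5.91e-05). None of the 5 passed in any other test, and their differences between CeO2 and water roots ran from -0.14 to 0.95. Of the 2 glutathione reductases, GR was lower in roots by 0.81 (limma adjusted p = 0.0248) and GR1 differed by -0.70 and did not pass (adjusted p = 0.0513). Of the TGA factors, NPR regulators and TOPLESS corepressors, 0 of 18 had a named probe set, so these partners of the family were not analysed here. AT4G32950, the 1 of 19 genes of nitrate uptake and nitrogen signalling with a probe set, differed by 0.17 between roots and leaves (limma adjusted p = 0.521). Of 9 type-A response regulators, which act in cytokinin signalling, 2 had a probe set: RR16 was lower in roots by 3.76 (limma adjusted p = 2.1e-06), and ARR15 differed by -0.29 and did not pass (adjusted p = 0.474). PDF1.2, a jasmonate-responsive defensin and the 1 of 7 defence genes with a probe set, was lower in roots by 6.50 (limma adjusted p = 1.79e-08). The flower marker AT5G07230, 1 of 6 with a probe set, had group means of 3.30 to 3.80 in all 8 groups.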

How the data were processed

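Biotin-labelled RNA of 24 samples was measured on Affymetrix ATH1 arrays. The deposited values are log2 signals, 1 per probe set and array, made by the authors with RMA, per the submitters' processing notes; its version and the set of arrays it was run on are not given in the sources used here. No detection calls were used, so a low signal has no set background, and no level is compared between probe sets; the number of arrays limits the precision. Probe sets were named from the platform's annotation: 13513 point to 1 gene, 503 to several and 8730 to none listed. Positions come from RefSeq (TAIR10.1).

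Group means were compared with limma 3.58.1 (R 4.3.3), using the 12 arrays of 1 tissue, or all 24 where tissues were compared. The two-sided moderated tests were Benjamini-Hochberg adjusted over all 22746 probe sets within each comparison, with a threshold of 0.05, and the fit was tested on simulated data. Of 11 comparisons, 7 were tested and 4 described without p; TiO2 and KCl leaf arrays still entered the shared estimate of the spread. P-values measure the spread between arrays called biological replicates. The members and gene lists were chosen with earlier results of these data known, which also limits the tests made. Named genes are the members, up to 3 per list (more where said), and the 5 most correlated probe sets. Same-numbered KCl and water root arrays deviated together (correlations 0.374, 0.341 and 0.176). In the other 5 comparisons of an agent with its control at least 1 pair did not. Root and leaf arrays of the same number were not checked. The replicate block ran over all arrays of each fit, so it did not pair KCl with water roots alone. Alternatives were another normalization, centring, array weights, a variance trend, a filter at a mean of 5, a replicate block, fewer groups, and leaving out each array or the 6 narrow ones. Python 3.11.15, pandas 2.3.3 and matplotlib 3.10.9 were used.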

Additional observations from a re-analysis of the deposited data

Results flagged for a closer look

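AT5G11930 differed from the control in opposite directions under the 2 particles in leaves. Against its KCl control every TiO2 leaf array was lower, with a mean log2 difference of -3.03, while against its water control every CeO2 leaf array was higher (1.50). The difference between them was -4.53 ± 0.47 (SE) and was not tested, because the TiO2 and KCl leaf values led to the choice of the gene. The KCl controls were higher than the water controls by 3.32, and the TiO2 leaves (4.23 to 4.81) overlapped the water leaves (3.54 to 4.64), and the CeO2 leaves (5.15 to 6.21) lay above both.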

How the results depend on the processing

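With array weights 1 of the 8 genes passed, where 0 did otherwise, in TiO2 against KCl roots, CeO2 against water roots, KCl against water roots, the particle difference in roots and the tissue difference of the CeO2 effect; the gene was AT5G11930 in both comparisons with KCl roots and AT1G06830 in the other 3. Array weights also raised the number of all probe sets that passed: to 3305, against 79, for TiO2 in roots, to 307, against 4, for CeO2 in roots, to 1551, against 27, for KCl in roots, to 2637, against 130, for the particle difference in roots, and to 33, against 1, for the tissue difference of the CeO2 effect. The cause was not tested. Leaving out 1 array gave 0 to 1 genes for TiO2 in roots (1 without TiO2 roots 2), 3 to 4 for roots against leaves and 0 for each of the other 5 tests. Over all probe sets it gave 4 to 456 calls for TiO2 in roots, 0 to 4 for CeO2 in roots, 0 to 17 for KCl in roots and 28 to 187 for the particle difference in roots. Without the 6 narrow arrays these 4 comparisons gave 0, 0, 0 and 5 calls, and with the replicate block 34, 0, 0 and 49. With only the groups compared in the fit, TiO2 in roots gave 3 calls, and CeO2 and KCl in roots 0 each. The 4 calls for CeO2 in roots were 2 with quantile normalization repeated, 1 with centring, 1 with a variance trend and 0 with the filter on low means, under which KCl in roots gave 17. The 1 call for the tissue difference of the CeO2 effect was 0 without narrow arrays, with the filter and with only the groups compared, and 1 to 3 leaving out 1 array. Only water plants gave 4533 calls for roots against leaves and only CeO2 plants 4033, against 7034, and AT1G06830 then reversed to 0.16 in water plants. The replicate block changed no call among the 8 genes. The median over the 8 genes, leaving out 1 array, ran from -1.81 to -1.15 for TiO2 in leaves, from 1.05 to 1.53 for KCl in leaves and from 1.13 to 1.52 for the tissue difference of the TiO2 effect. For the particle difference in leaves it was 0.22 and ran from -0.49 to 0.43, turning to -0.49 without CeO2 leaves 3 and -0.09 without water leaves 2. When arrays were centred, the median over all probe sets was -0.0875, against 0.0286, for KCl in roots, 0.104, against -0.0282, for the particle difference in roots, -0.201, against -0.0912, for that in leaves, and 0.181, against -0.00436, for the tissue difference of the TiO2 effect. Calls higher and lower then numbered 71 and 32, against 46 and 33, for TiO2 in roots, 7 and 21, against 11 and 16, for KCl in roots (25 and 12 with quantile normalization repeated) and 94 and 44, against 73 and 57, for the particle difference in roots. Among the 8 genes no call changed with centring or repeated quantile normalization.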
